A study of Mus musculus with 14 samples.

Results

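The high mobility group (HMG) genes examined here were Hmgb1, Hmgb2 and Hmgb3, which carry HMG boxes, Hmgn1, Hmgn2, Hmgn3 and Hmgn5, which bind nucleosomes, and Hmga1, which binds AT-rich DNA. They were taken by gene symbol and made up 8 of the 56923 gene rows of the count table, each symbol naming 1 row. The set was chosen by family after the normalised counts and fold changes of these same libraries had been seen, so every level and fold change of these genes is a description, and the adjusted p-values beside them come from fits over all genes and carry no independent weight. The RNA-seq libraries were made from ICR mouse embryos, 5 embryos to a library and 2 libraries to a group, 14 libraries in 7 groups. In 5 groups the embryos were cultured from 24 h after hCG in mKSOM medium with 5 µM Gne140, an inhibitor of the lactate dehydrogenases LDHA and LDHB, and 50 µM NMN, a precursor of NAD+. The G&N groups also had 10 mM lactate, and the G&N-L groups had none. Both were collected as early 2-cell embryos at 30 h and as late 2-cell embryos at 54 h after hCG. The fifth group, late 2-cell G&N-L + Lac-CoA, came from zygotes injected with 1 mM lactyl-CoA, the donor of the lactyl group, and then held without lactate. The 2 remaining groups were late 2-cell embryos from zygotes injected at 14 h after hCG with 200 ng/µL of mRNA for histones H3.1, H3.2 and H3.3, either unchanged (WT) or with lysine 18 replaced (H3K18R), and their own histone genes were still present. Every group in the lactate comparisons carried Gne140 and NMN by its title. The treatment field of the labels goes against the titles in the early libraries, since it lists GNE140 with NMN for early G&N-L and GNE140 alone for early G&N. The groups follow the titles, but if that field is right, the early lactate comparison, the interaction and the stage change with lactate differ in NMN as well, and the effects of NMN and of lactate or stage cannot be told apart there.

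HMGB proteins hold a pair of HMG boxes and an acidic tail, bend DNA and loosen nucleosomes, and Hmgb2 and Hmgb3 are known as the forms of proliferating and embryonic cells. HMGN proteins bind the nucleosome core through a short conserved domain, compete with linker histone H1 and are found at open chromatin, and Hmgn5 carries a long acidic tail. HMGA proteins hold AT-hooks and are abundant in embryonic and transformed cells. The late 2-cell stage in the mouse is the time of the major zygotic genome activation, when the embryo begins to transcribe a large set of its own genes while maternal RNA is lost.

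Total counts ran from 20350427 to 61275465 per library, and each HMG gene had a count in every library, from 39 for Hmga1 to 24844 for Hmgn5. Replicates of a group correlated at 0.844 to 0.917 across genes on log2 CPM. Of the 14 libraries 6 (3 early and 3 late) correlated more closely with a library of another group of their stage than with their own replicate, for example early G&N-L replicate 2 at 0.925 against 0.906 and H3K18R replicate 1 at 0.871 against 0.844. The early lactate groups were thus not separated by their replicates. The share of mitochondrial counts was 2.17% to 3.85% in the early libraries, 5.65% to 6.84% in late G&N, G&N-L and Lac-CoA, and 10.6% to 12.2% in WT and H3K18R. The label of the stage was checked against 8 genes of the 2-cell embryo, whose summed level was 461 to 810 CPM in the early and 1038 to 3376 CPM in the late libraries. With lactate 7 of the 8 had a higher fitted level late than early. Tcstv1 was lower, with group means of 510 CPM in early G&N and 366 CPM in late G&N. The 10 oocyte genes of a second list summed to 20593 to 27599 CPM in the early libraries and to 3599 to 19126 CPM in the late ones, with 16701 and 19126 CPM in late G&N-L, 13089 and 15042 CPM in late G&N, and 3599 to 8182 CPM in the WT and H3K18R groups. Abundant genes weigh most in these sums, and Btg4 alone had group means of 16852 CPM in early G&N, 7912 CPM in late G&N and 11384 CPM in late G&N-L. Of the 10 genes, 9 had a lower and 1 a higher fitted level late than early with lactate. In late G&N-L against late G&N, 6 were higher and 4 lower. A list of 12 cumulus cell genes summed to 5.39 to 33.6 CPM. The part of these marker genes in the HMG levels was not tested. CPM here is the TMM-normalised read count, scaled over the 14 libraries to a common library size, so it compares libraries for 1 gene, and FPKM, which divides by the exonic length of the gene, is used to compare genes. In bulk RNA from whole embryos, fewer transcripts per cell and a smaller share of a growing RNA pool cannot be told apart.

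The HMG genes are short and have left many processed copies in the genome, which bears on what a count of them means. On the mouse build mm39 Hmgb1 lies on the minus strand of chromosome 5 (148983445-149121815), Hmgb2 on the plus strand of chromosome 8 (57964687-57969276) and Hmgb3 on the plus strand of chromosome X (70591492-70605868). Hmgn1 lies on the minus strand of chromosome 16 (95921818-95929231), Hmgn2 on the minus strand of chromosome 4 (133680805-133695961), Hmgn3 on the minus strand of chromosome 9 (82989099-83028792), Hmgn5 on the minus strand of chromosome X (108046597-108057647) and Hmga1 on the plus strand of chromosome 17 (27775449-27782648). A search of the genome with 1 principal transcript of each gene, at 90% identity or more over at least 100 bases, found 126 other loci for Hmgb1, 38 for Hmgb2, 25 for Hmgn2, 23 for Hmgb3, 9 for Hmgn1, 3 for Hmgn3 and 2 each for Hmgn5 and Hmga1. Of these, 151 annotated genes were rows of the count table and 119 of them had at least 1 count. The copies named Gm were picked after their counts were seen. The coding sequences below are shown because they set how far reads of a gene and of its most counted copy can be separated. Each is the ungapped window of 60 bases in which gene and copy differ at the most positions. Other windows of that length therefore separate them no better. Bases that differ are in capitals, and positions are counted from the A of the start codon.
Hmgn2 coding bases 1 to 60: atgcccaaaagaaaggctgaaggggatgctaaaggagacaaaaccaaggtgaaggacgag
Hmgn2-ps (chr8:73058966-73059025, minus strand): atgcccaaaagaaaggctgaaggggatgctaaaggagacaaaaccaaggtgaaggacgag
Hmgb1 coding bases 512 to 571: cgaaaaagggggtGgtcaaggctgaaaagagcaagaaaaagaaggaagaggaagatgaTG
Hmgb1-ps7 (chr7:41670771-41670830, plus strand): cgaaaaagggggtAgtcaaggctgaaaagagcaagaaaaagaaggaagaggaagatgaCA
Hmgb2 coding bases 547 to 606: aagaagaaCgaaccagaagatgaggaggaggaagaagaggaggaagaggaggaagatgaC
Gm4739 (chr10:25984233-25984292, plus strand): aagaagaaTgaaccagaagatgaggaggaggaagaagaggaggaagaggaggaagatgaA
Hmgn5 coding bases 392 to 451: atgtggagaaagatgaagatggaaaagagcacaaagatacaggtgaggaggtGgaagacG
Gm11914 (chr4:27867205-27867264, minus strand): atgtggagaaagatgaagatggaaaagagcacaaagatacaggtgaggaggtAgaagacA
The 270 coding bases of Hmgn2 were found whole and without a difference in Hmgn2-ps. The 645 coding bases of Hmgb1 differed from Hmgb1-ps7 at 9 positions and from a second copy, Gm15387 on chromosome 15, at 1 position. Hmgb2 differed from Gm4739 at 2 of 630 coding bases. Gm11914 matched 507 of the 1218 coding bases of Hmgn5 and differed at 3 of them.

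Counted over windows of 100 bases, all windows of the Hmgn2 coding sequence, 96.2% of those of Hmgb1, 95.3% of those of Hmgb2 and 56.1% of those of Hmgb3 occurred without a difference in another locus. The share was 48.1% for Hmga1, 25.4% for Hmgn1, 21.8% for Hmgn5 and 0.0% for Hmgn3. Over the whole transcripts, which include the untranslated parts, it was 66.7% for Hmgn2, 65.8% for Hmga1, 55.6% for Hmgb1, 28.4% for Hmgb3, 24.5% for Hmgb2, 9.07% for Hmgn5, 6.52% for Hmgn1 and 0.0% for Hmgn3. The 25 annotated copies of Hmgn2 held 66.6% to 79.1% of the counts of Hmgn2 and its copies together, and the 95 annotated copies of Hmgb1 held 39.2% to 74.2%. The copies held 5.83% to 11.9% for Hmgb2, 8.46% to 17.99% for Hmgn5, 1.79% to 3.93% for Hmgb3 and 1.61% to 5.57% for Hmgn1. Hmga1b, a copy on chromosome 11 whose 288 coding bases equal those of Hmga1 apart from 1 gap, held 0.0% to 53.0%. The levels of Hmgn2, Hmgb1 and Hmga1 are therefore given as uncertain, because reads of a gene and of a copy could have been assigned to either. No annotated copy of Hmgn3 was counted. Hmgb2 and Hmga1 also share 17.0% and 14.5% of their exonic bases with genes on the opposite strand (Gm56857 and Smim29), and the strand setting of the counting was not given in the sources used here.

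**Figure D1:**
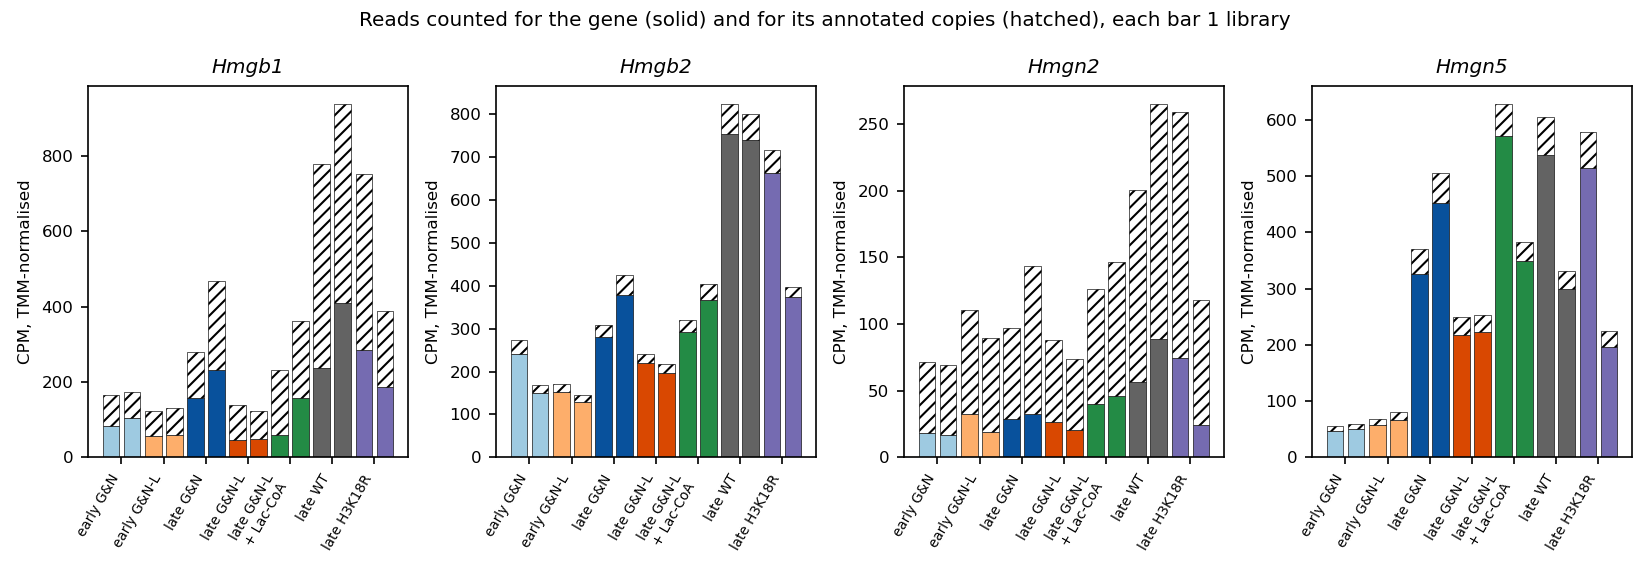
Reads counted for Hmgb1, Hmgb2, Hmgn2 and Hmgn5 (solid) and for the annotated copies of each (hatched), in TMM-normalised CPM, 1 bar a library and 2 libraries a group. The hatched part exceeded the solid part for Hmgn2 in every library, was 39.2% to 74.2% of the bar for Hmgb1, and stayed under 17.99% for Hmgb2 and Hmgn5.

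The 250 bases before the start of the principal transcript were read for all 8 genes. The letters CCAAT, on either strand, occurred in the promoters of all 3 HMGB genes (2 times each in Hmgb1 and Hmgb2 and 3 times in Hmgb3) and 1 time in that of Hmgn5, and in none of the other 4. Of 18871 protein-coding promoters of the same length 35.7% held CCAAT, 36.9% held GGGCGG and 12.7% held TATAAA, each on either strand. GGGCGG occurred 1 time each in Hmgb3, Hmgn1 and Hmga1. TATAAA occurred in Hmgn3 alone, at 3 positions counting both strands, and that promoter had 5 CpG against a median of 8 over all promoters and 12 to 35 in the other 7. The 4 promoters that hold CCAAT are printed, with the CCAAT and GGGCGG letters in capitals. No measurement of binding or of a histone mark at them was used here.
Hmgb1 promoter (chr5:148989882-148990131, minus strand): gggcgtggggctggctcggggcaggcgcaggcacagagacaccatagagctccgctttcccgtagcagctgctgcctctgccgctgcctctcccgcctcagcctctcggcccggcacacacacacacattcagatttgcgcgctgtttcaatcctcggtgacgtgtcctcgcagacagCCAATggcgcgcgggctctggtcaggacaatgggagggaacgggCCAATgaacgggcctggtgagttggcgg
Hmgb2 promoter (chr8:57964437-57964686, plus strand): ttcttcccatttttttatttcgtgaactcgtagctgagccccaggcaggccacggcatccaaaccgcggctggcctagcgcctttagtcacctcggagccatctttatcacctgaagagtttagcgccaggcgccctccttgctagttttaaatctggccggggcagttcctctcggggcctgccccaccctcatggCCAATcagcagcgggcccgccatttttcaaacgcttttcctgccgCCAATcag
Hmgb3 promoter (chrX:70599274-70599523, plus strand): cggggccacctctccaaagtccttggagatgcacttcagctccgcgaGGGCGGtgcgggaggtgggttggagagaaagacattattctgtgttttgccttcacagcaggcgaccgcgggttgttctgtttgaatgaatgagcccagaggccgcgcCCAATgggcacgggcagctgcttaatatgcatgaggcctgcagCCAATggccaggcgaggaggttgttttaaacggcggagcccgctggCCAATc
Hmgn5 promoter (chrX:108057108-108057357, minus strand): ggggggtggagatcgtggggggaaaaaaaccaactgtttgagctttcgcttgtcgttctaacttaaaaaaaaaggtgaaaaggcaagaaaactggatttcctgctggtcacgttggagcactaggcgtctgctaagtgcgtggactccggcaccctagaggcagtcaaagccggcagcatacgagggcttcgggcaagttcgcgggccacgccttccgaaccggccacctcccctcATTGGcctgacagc

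**Figure D2:**
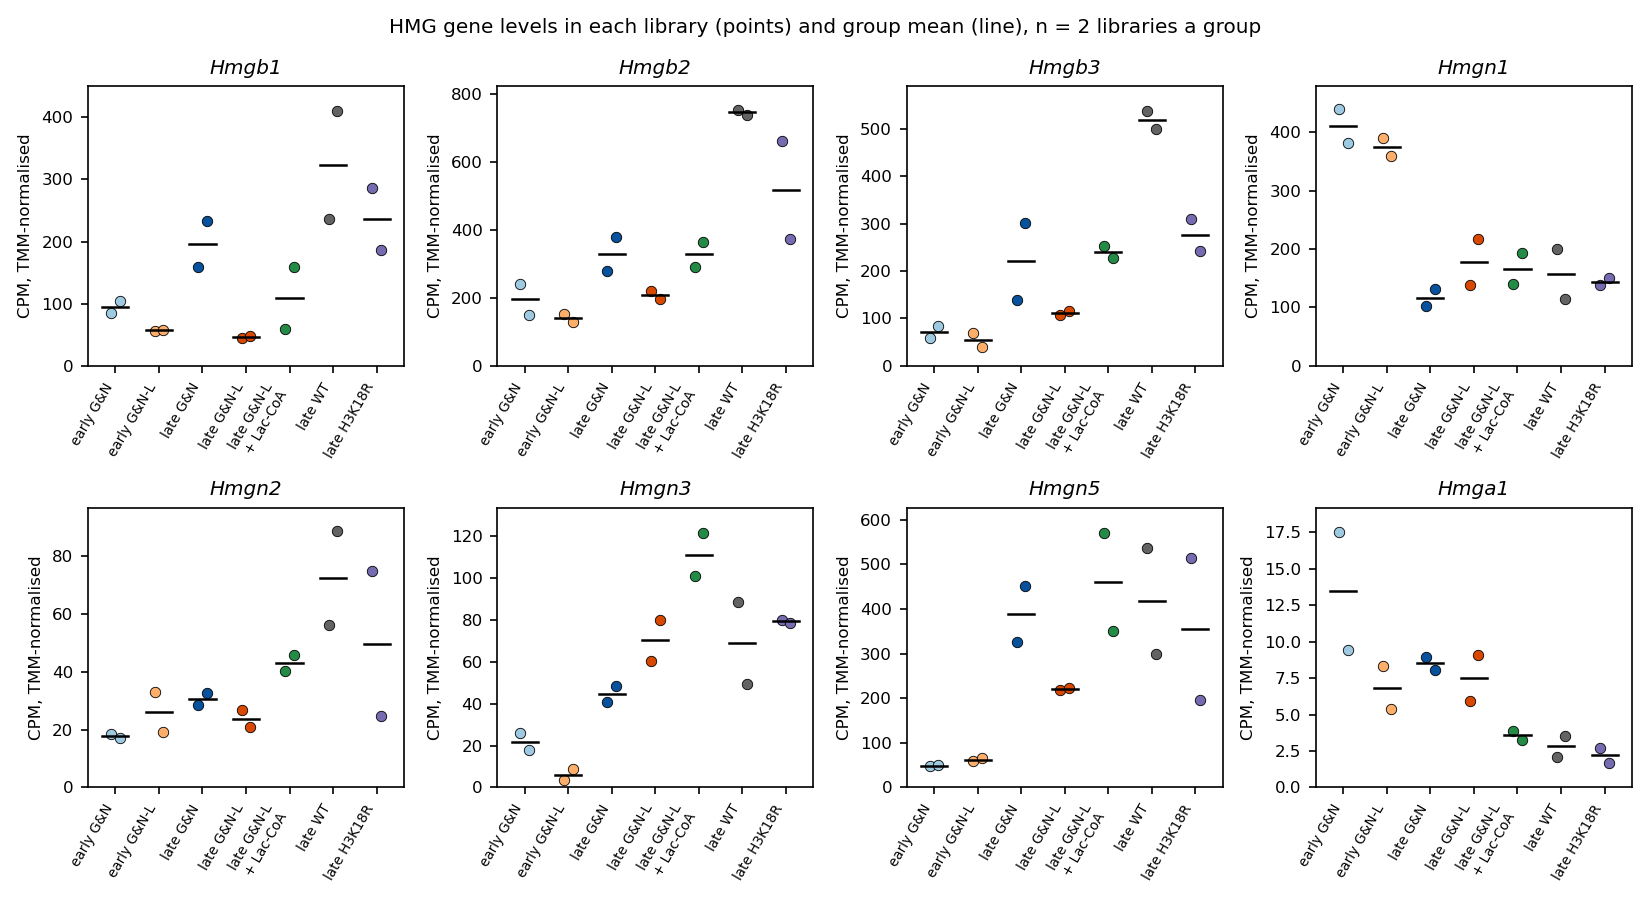
Level of each of the 8 HMG genes in TMM-normalised CPM, 1 point a library, with the mean of the 2 libraries of a group as a line and each vertical axis starting at 0. Hmgn1 was highest in the 4 early libraries (359 to 439 CPM), Hmgn5 was at 196 CPM or more in all 10 late libraries against 47.1 to 65.7 CPM in the early ones, and the WT libraries held the highest Hmgb2 and Hmgb3 levels.

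In early 2-cell embryos Hmgn1 was the HMG gene with the highest level per length, at 67.8 and 78.0 FPKM in G&N, above Hmgb2 at 37.5 and 60.3 FPKM. Hmgb3 (12.8 and 18.6 FPKM), Hmgb1 (12.5 and 15.5 FPKM) and Hmgn5 (11.98 and 13.0 FPKM) followed and overlapped one another. Hmgn3, Hmgn2 and Hmga1 lay at 2.04 to 5.33 FPKM and also overlapped. In late G&N embryos the order was led by Hmgn5 at 82.8 and 115 FPKM and Hmgb2 at 69.7 and 94.3 FPKM, which overlapped, and Hmgn1 lay below the HMGB genes at 18.1 and 23.4 FPKM. Hmgn3 then stood at 8.41 and 10.03 FPKM, Hmgn2 at 6.199 and 7.13 FPKM and Hmga1 at 1.75 and 1.94 FPKM. Dividing by the length of the principal transcript in place of all annotated exons kept Hmgn1 first in both early groups and Hmgn5 first in late G&N. In late G&N-L it placed Hmgn1 first in place of Hmgn5. Counts of annotated copies are left out of these orders. The places of Hmgn2, Hmgb1 and Hmga1, and of the genes ranked against them, are therefore uncertain.

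By the counts of the genes alone, without their annotated copies, the make-up of the HMGN transcripts turned over between the stages. The copies held 66.6% to 79.1% of the counts of Hmgn2 and its copies together. The share of Hmgn2 and the shares set against it are therefore uncertain. Shares of 1 sum are also tied, so a fall of 1 gene raises the others. Hmgn1 made up 73.8% to 78.5% of the summed FPKM of the 4 HMGN genes in the 4 early libraries and 12.4% to 33.1% in the 10 late ones. Hmgn5 made up 12.1% to 19.3% in the early libraries and 48.8% to 73.9% in the late ones. Hmgn3 went from 0.754% to 5.37% in the early libraries to 6.46% to 16.6% in the late ones, and Hmgn2 from 4.07% to 7.78% to a range of 3.90% to 15.3%. The ranges of Hmgn1, Hmgn5 and Hmgn3 did not overlap between stages, and that of Hmgn2 did. These shares rest on the length of all annotated exons. With the length of the principal transcript Hmgn5 held 5.87% to 9.49% early and 30.7% to 53.0% late, Hmgn1 70.5% to 79.0% early and 16.8% to 43.5% late, Hmgn3 0.381% to 2.91% early and 4.56% to 11.6% late, and Hmgn2 12.3% to 21.8% early and 15.3% to 47.9% late. Hmgn2 was again the gene whose ranges overlapped. Hmgn5 was then not the largest part in late G&N-L replicate 2 and H3K18R replicate 2, where Hmgn1 was (43.5% and 35.3%), nor in WT replicate 2, where Hmgn2 was (47.9%). The summed HMGN level was 86.4 to 99.3 FPKM in the early and 98.1 to 203 FPKM in the late libraries. Among the HMGB genes, counted without their copies, Hmgb2 had the largest share in every library, at 52.4% to 70.4% early and 48.5% to 64.6% late. The share of Hmgb3 was 14.9% to 25.9% early and 24.6% to 40.3% late. The copies held 39.2% to 74.2% of the counts of Hmgb1 and its copies together. The order of Hmgb1 and Hmgb2 therefore rests on how reads were assigned and is uncertain.

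**Figure D3:**
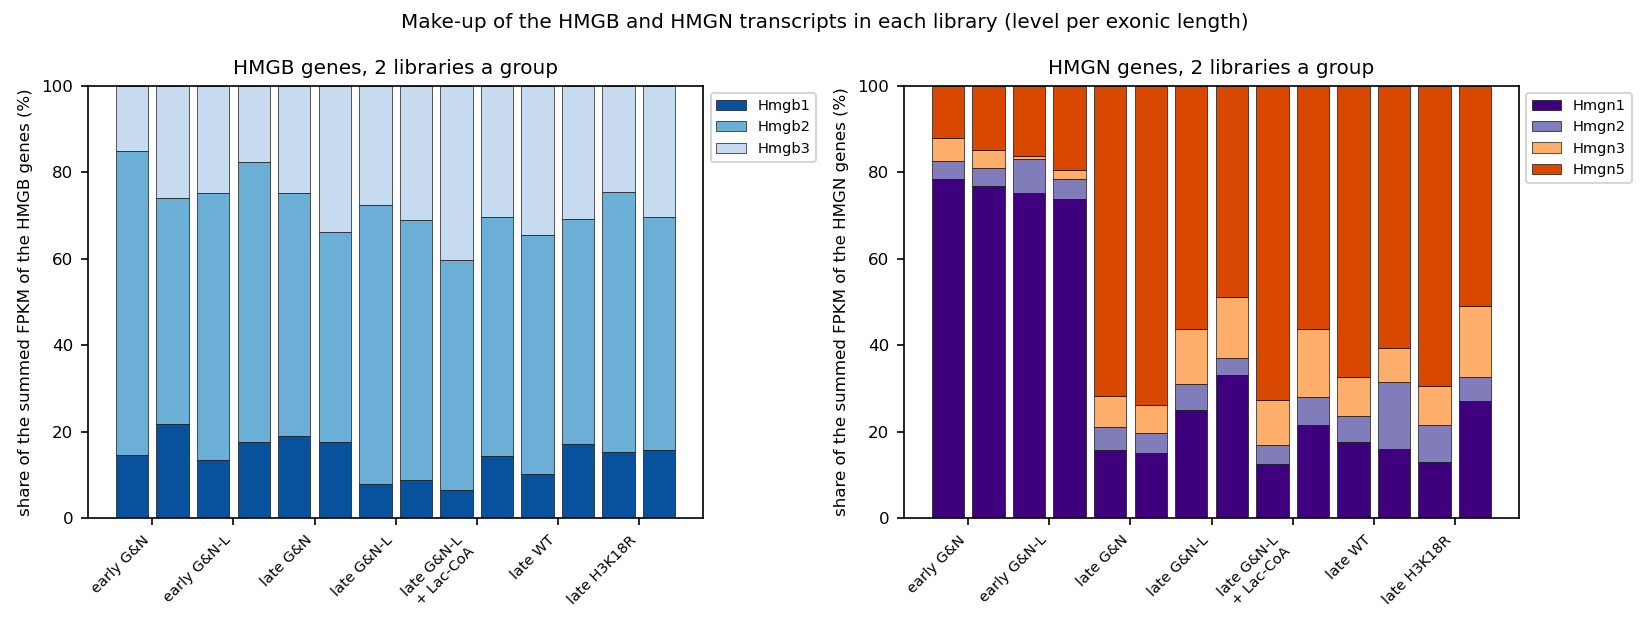
Share of the summed FPKM (per length of all annotated exons) of the 3 HMGB genes (left) and the 4 HMGN genes (right) held by each gene, 1 bar a library and 2 libraries a group. Hmgn1 filled 73.8% to 78.5% of the HMGN bar in the early libraries and Hmgn5 48.8% to 73.9% in the late ones, while Hmgb2 was the largest part of every HMGB bar. Counts of annotated copies, many for Hmgn2 and Hmgb1, are left out, so the shares are uncertain.

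From the early to the late stage in the presence of lactate, Hmgn5 rose and Hmgn1 fell, and in its absence Hmgn3 and Hmgn5 rose and Hmgn1 fell, by edgeR's quasi-likelihood test with Benjamini-Hochberg adjustment over all genes. Hmgn5 stood at 47.1 and 51.1 CPM in early G&N and at 326 and 452 CPM in late G&N, and at 58.4 and 65.7 CPM in early G&N-L and 218 and 223 CPM in late G&N-L. Both late groups lay wholly above both early groups. Its log2 fold change was 2.90 (SE 0.305, edgeR adjusted p = 0.00887) with lactate and 1.77 (SE 0.186, adjusted p = 0.00976) without. Hmgn1, the most abundant HMGN transcript of the early embryo, stood at 439 and 382 CPM in early G&N and 102 and 132 CPM in late G&N, and at 390.4 and 359 CPM in early G&N-L and 139 and 217 CPM in late G&N-L. No late library reached the lowest early one. Its log2 fold change was -1.88 (SE 0.256, edgeR adjusted p = 0.0143) with lactate and -1.14 (SE 0.243, adjusted p = 0.0458) without. Of the 10 oocyte genes above, 6 were called lower with lactate and 3 without, and whether the level of Hmgn1 is part of that decline was not tested.

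Hmgn3 had its lowest levels in early G&N-L, at 3.35 and 8.75 CPM, against 25.8 and 17.8 CPM in early G&N, 40.6 and 48.5 CPM in late G&N and 60.4 and 80.0 CPM in late G&N-L. Its log2 fold change between the stages was 3.46 without lactate (SE 0.566, edgeR adjusted p = 0.0251) and 0.98 with it (SE 0.344, adjusted p = 0.108). Hmgn2 stood at 18.6 and 17.2 CPM in early G&N and 28.5 and 32.8 CPM in late G&N, and its early and late G&N-L libraries overlapped (32.9 and 19.0 CPM against 26.7 and 20.9 CPM). Without 1 library these calls were not stable. Hmgn5 lost its call with lactate when late G&N replicate 2 was left out (edgeR adjusted p = 0.0521) and without lactate when late G&N-L replicate 1 was left out (adjusted p = 0.0608). Hmgn1 lost it with lactate when either late G&N library was left out (edgeR adjusted p = 0.0876 and 0.0716) and without lactate when late G&N-L replicate 1 (0.102) or early G&N-L replicate 1 (0.117) or 2 (0.117) was left out. Hmgn3 lost it when either late G&N-L library was left out (edgeR adjusted p = 0.0984 and 0.103). The direction of each was kept in all of these fits, and the Hmgn3 value without lactate was 4.36 without early G&N-L replicate 2.

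The HMGB genes were also higher in late than in early embryos given lactate, though none passed edgeR's test. Hmgb1, the most abundant HMG-box protein of most cells, stood at 84.6 and 105 CPM early and 158 and 233 CPM late, a log2 fold change of 0.96 (SE 0.330, edgeR adjusted p = 0.103). Hmgb2 stood at 242 and 150.3 CPM early and 279 and 378 CPM late (0.69, SE 0.294, edgeR adjusted p = 0.166), and Hmgb3 at 58.6 and 85.0 CPM early and 139.6 and 301 CPM late (1.52, SE 0.472, adjusted p = 0.0794), which was 0.85 without late G&N replicate 2. Without lactate Hmgb1 stood at 56.3 and 58.4 CPM early and at 45.1 and 48.3 CPM late, the late pair being the lower one. Hmgb2 (153 and 129 CPM early, 219 and 196 CPM late) and Hmgb3 (70.0 and 39.9 CPM early, 107 and 116 CPM late) lay higher late, with log2 fold changes of 0.50 (SE 0.173) and 0.97 (SE 0.287). Over all genes, edgeR called 13.7% of 19443 genes between the stages with lactate and 11.8% of 18604 without, against 2 and 3 of the 8 HMG genes. At an unadjusted p under 0.05 the shares were 34.4% and 32.5% of all genes against 5 and 5 of the 8, by DESeq2 30.5% and 27.9% against 6 and 5, and the late and early libraries did not overlap for 64.6% and 62.5% of all genes against 8 and 6 of the 8. DESeq2 added Hmgb1, Hmgb2, Hmgb3 and Hmgn3 with lactate and Hmgb2 and Hmgb3 without. Scaling by library totals in place of TMM moved the median log2 fold change of all genes from 0.08 to 0.46 with lactate and from 0.15 to 0.51 without, and it turned the sign of Hmgb1 (0.0021 in place of -0.36) and Hmgn2 in the comparison without lactate. The share of higher genes among those edgeR called was 59.9% with lactate and 50.4% without on TMM, 76.4% and 72.6% on library totals, and 71.7% and 71.5% with all 14 libraries in 1 fit.

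The comparison that addresses lactate at the time of genome activation set late G&N-L against late G&N embryos. Hmgb1 had the largest difference of the 8, with 158 and 233 CPM in G&N and 45.1 and 48.3 CPM in G&N-L, which were below all other late libraries. Its log2 fold change was -2.01 (SE 0.256), with an adjusted p of 0.311 by edgeR and 1.51e-08 by DESeq2. Hmgb2 was at 279 and 378 CPM with lactate and 219 and 196 CPM without (log2 fold change -0.61, SE 0.216), and Hmgb3 at 139.6 and 301 CPM with and 107 and 116 CPM without (-0.92, SE 0.365). All 3 HMGB genes thus had both G&N-L libraries below both G&N libraries. The value of Hmgb3 rested on late G&N replicate 2 and was -0.24 without it.

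The HMGN genes went in both directions. Hmgn5 was lower without lactate, at 218 and 223 CPM against 326 and 452 CPM (log2 fold change -0.76, SE 0.212), and Hmgn2 was at 26.7 and 20.9 CPM against 28.5 and 32.8 CPM (-0.31, SE 0.326). Hmgn3 was higher, at 60.4 and 80.0 CPM against 40.6 and 48.5 CPM (0.71, SE 0.267), and so was Hmgn1, at 139 and 217 CPM against 102 and 132 CPM (0.65, SE 0.282). Hmga1 overlapped, at 5.91 and 9.06 CPM against 8.95 and 8.06 CPM. For 7 of the 8 genes the groups did not overlap, which was so for 43.5% of all 19481 genes tested. No HMG gene and no other gene passed edgeR's adjusted test (0.00%), 5 of the 8 had an unadjusted p under 0.05 against 12.0% of all genes, and DESeq2 called 1 of the 8 (Hmgb1) and 4.79% of all genes. The median log2 fold change was -0.46 over the 8 and -0.02 over all genes. With no filter on low counts and with at least 10 counts in every library edgeR called Hmgb1 (adjusted p = 0.00132 and 0.0195).

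**Figure D4:**
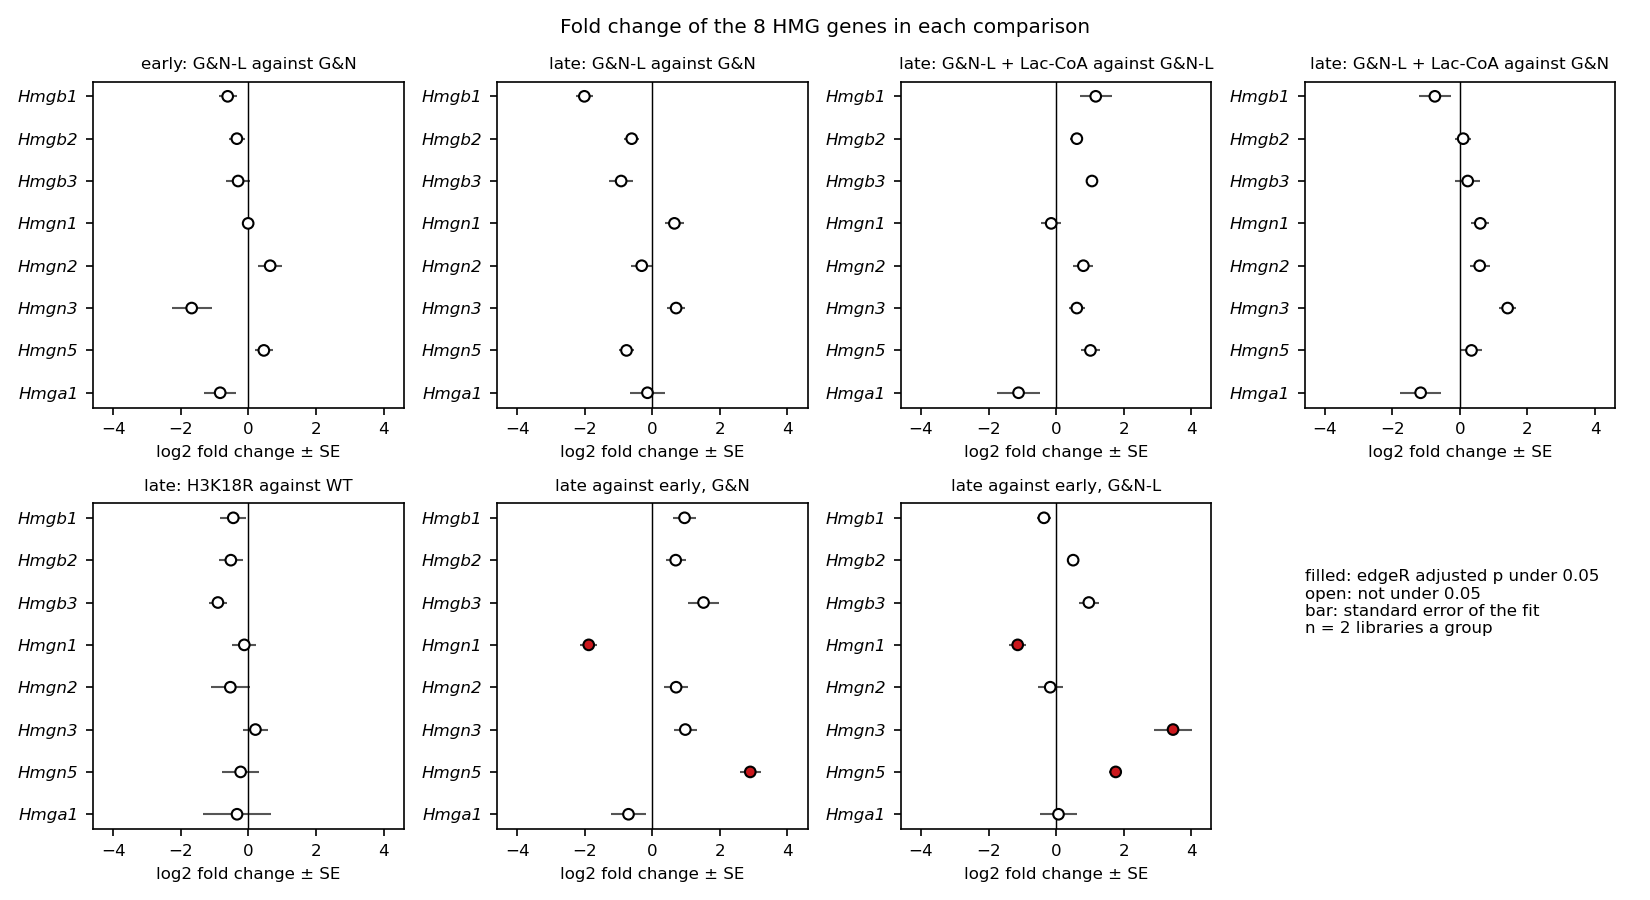
Log2 fold change of the 8 HMG genes in the 7 comparisons, 2 libraries a group, filled where the edgeR adjusted p is under 0.05. The bar is a standard error derived from the fold change and the F statistic of edgeR's test. Filled points occur in the stage comparisons alone (Hmgn1 and Hmgn5 with lactate, Hmgn1, Hmgn3 and Hmgn5 without), and Hmgb1 at -2.01 is the farthest from 0 in the late G&N-L against G&N panel.

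In early 2-cell embryos, 6 h after the lactate was withheld, Hmgn3 had the largest difference, with 3.35 and 8.75 CPM in G&N-L against 25.8 and 17.8 CPM in G&N (log2 fold change -1.68, SE 0.589, adjusted p = 0.9999 by edgeR). Hmgb1 was at 56.3 and 58.4 CPM against 84.6 and 105 CPM (-0.62, SE 0.265) and Hmga1 at 8.37 and 5.35 CPM against 17.5 and 9.42 CPM (-0.84, SE 0.469). Hmgn5 (58.4 and 65.7 CPM against 47.1 and 51.1 CPM) and Hmgn2 (32.9 and 19.0 CPM against 18.6 and 17.2 CPM) lay higher without lactate. Hmgb2, Hmgb3 and Hmgn1 overlapped, and Hmgn1 differed least, with a log2 fold change of -0.01 (SE 0.172). Of the 8 genes 5 did not overlap, against 32.7% of all 17343. None passed edgeR's adjusted test (0.00% of all genes), 1 had an unadjusted p under 0.05 (4.52% of all genes), and none was called by DESeq2 (0.219% of all genes). The Hmgn3 value moved to -2.65 without early G&N-L replicate 2.

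Whether the difference made by lactate itself changed between the stages was fitted as an interaction over the 8 libraries. The largest terms were those of Hmgn3 (2.42 on the log2 scale, SE 0.678), Hmgb1 (-1.36, SE 0.396) and Hmgn5 (-1.19, SE 0.348), each with an unadjusted p under 0.05, and their adjusted p-values by edgeR were 0.619, 0.637 and 0.637. The Hmgn3 term was 1.83 without early G&N-L replicate 1 and 3.39 without replicate 2, and the Hmgb3 term went from -0.59 to 0.06 without late G&N replicate 2. The lactate groups did not overlap at either stage and lay in opposite directions for 3 of the 8 genes (Hmgn2, Hmgn3 and Hmgn5), against 4.98% of all genes. None of the 8 passed, as none of 22287 genes did (0.00%), 3 of the 8 against 7.55% of all genes were under an unadjusted p of 0.05, and DESeq2 called none of the 8 and 1.10% of all genes.

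In the Lac-CoA group, kept without lactate, 6 of the 8 genes had a higher fitted level than in G&N-L. The sources used here name no injection of the G&N-L or G&N embryos. Lac-CoA and the injection itself therefore cannot be told apart in the comparisons of this group with either. Hmgb3 was at 253 and 228 CPM against 107 and 116 CPM (log2 fold change 1.06, SE 0.185, adjusted p = 0.294 by edgeR and 0.000184 by DESeq2). Hmgn5 was at 572 and 349.8 CPM against 218 and 223 CPM (1.02, SE 0.279, adjusted p = 0.301 by edgeR and 0.0106 by DESeq2). Hmgb1 was at 60.1 and 159 CPM against 45.1 and 48.3 CPM (1.17, SE 0.470). Its first Lac-CoA library thus lay close to the G&N-L pair and its second at the lower edge of late G&N. Without that second library the value was 0.33. Hmgb2 (292 and 366 CPM), Hmgn2 (40.4 and 46.0 CPM) and Hmgn3 (101 and 121 CPM) were above their G&N-L pairs by 0.61, 0.81 and 0.61 on the log2 scale. Hmgn1 overlapped (139.96 and 193 CPM), and Hmga1 was lower, at 3.89 and 3.25 CPM. Of the 8, 7 did not overlap, against 46.8% of all 19610 genes, 0 passed edgeR's adjusted test (0.00%), 5 were under an unadjusted p of 0.05 (13.3%), and DESeq2 called 2 (6.20%).

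Set beside late G&N, the Lac-CoA group overlapped in Hmgb1, Hmgb2, Hmgb3 and Hmgn5, and the log2 fold changes of the last 3 were 0.10 (SE 0.241), 0.23 (SE 0.367) and 0.34 (SE 0.309). The overlap in Hmgb1 rested on 158.7 CPM in Lac-CoA replicate 2 against 158.4 CPM in late G&N replicate 1, and its log2 fold change was -0.74 (SE 0.483). Without Lac-CoA replicate 2 it was -1.62, and that of Hmgb3 was 0.83 without late G&N replicate 2. Hmgn3 was higher than with lactate, at 101 and 121 CPM against 40.6 and 48.5 CPM (1.41, SE 0.257, adjusted p = 0.500 by edgeR and 0.000376 by DESeq2), so both late groups kept without lactate lay above late G&N for it. Hmgn1 and Hmgn2 were higher by 0.60 and 0.59, and Hmga1 was lower (-1.16, SE 0.605). Of the 8, 4 did not overlap (39.7% of all 19613 genes), 0 passed edgeR's adjusted test (0.00%), 1 was under an unadjusted p of 0.05 (8.51%) and 1 was called by DESeq2 (2.43%). These comparisons share libraries with each other and with the comparison of late G&N-L and G&N, so their values are not independent. The oocyte genes summed to 14044 and 9876 CPM in the Lac-CoA libraries, below the G&N-L pair, and their part in these values was not tested.

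In embryos given H3K18R histones 7 of the 8 genes had a lower fitted level than in WT, none by edgeR's adjusted test. Hmgb3 was at 309.9 and 242 CPM against 537 and 499 CPM (log2 fold change -0.91, SE 0.271, edgeR adjusted p = 0.734), and Hmgb2 at 661 and 374 CPM against 753 and 739 CPM (-0.52, SE 0.346). In these 2 genes alone both H3K18R libraries lay below both WT libraries. Hmgb1 (285 and 186 CPM against 236 and 410.3 CPM), Hmgn5 (515 and 196 CPM against 538 and 300.0 CPM), Hmgn2 (74.8 and 24.6 CPM against 56.2 and 88.7 CPM) and Hmgn1 (138 and 150.05 CPM against 199.97 and 114 CPM) overlapped. Hmgn3 (80.1 and 78.5 CPM against 88.7 and 49.1 CPM) and Hmga1 (2.73 and 1.71 CPM against 2.09 and 3.55 CPM) overlapped as well. The replicates of these groups were far apart for some genes, with 515 and 196 CPM of Hmgn5 in the H3K18R pair. Without H3K18R replicate 1 the log2 fold change of Hmgn5 was -1.10 in place of -0.23 and that of Hmgn2 -1.56 in place of -0.54, and without replicate 2 that of Hmgn2 was 0.05. Of the 8, 2 did not overlap, against 39.0% of all 17704 genes, and the shares called were 0.00565% of all genes and 0 of 8 by edgeR, 6.44% and 1 of 8 at an unadjusted p under 0.05, and 0.678% and 0 of 8 by DESeq2. The 2 histone mRNA groups, whose labels name no Gne140 or NMN, held the highest group means of Hmgb1, Hmgb2, Hmgb3 and Hmgn2 among the 7 groups, and treatment and injection cannot be told apart there. These groups also held the highest mitochondrial shares (10.6% to 12.2%) and the lowest oocyte sums, and the part of either in the HMG levels was not tested.

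Because Hmgn2 and Hmgb1 share so much sequence with their copies, the counts of the annotated copies were added to each gene and the fits repeated, a setting chosen after seeing the data. Hmgb1 with its copies stood at 279 and 467 CPM in late G&N and 138 and 123 CPM in late G&N-L, and its log2 fold change was -1.46 in place of -2.01. Its early to late change without lactate became -0.01 in place of -0.36, and its early change on lactate removal -0.31 in place of -0.62. Of the copies of Hmgb1, Hmgb1-ps7 stood at 36.1 and 62.6 CPM in late G&N and 38.7 and 36.7 CPM in late G&N-L, while Gm15387, which differs from Hmgb1 at 1 coding base, stood at 30.5 and 62.6 CPM and 14.7 and 14.5 CPM. Hmgn2 with its copies stood at 96.8 and 143 CPM in late G&N and 88.0 and 73.7 CPM in late G&N-L (-0.51 in place of -0.31), and Hmgn2-ps alone at 61.2 and 99.6 CPM and 52.8 and 46.4 CPM. The sign of Hmga1 changed in 3 comparisons (0.05 in place of -0.14 on late lactate removal, 0.36 in place of -0.34 for H3K18R and -0.20 in place of 0.07 between the stages without lactate). The called changes of Hmgn1, Hmgn3 and Hmgn5 between the stages were called again, and no other HMG gene was.

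Hmga1 had the lowest level per length of the 8 in every late group, at 1.71 to 9.06 CPM, and stood at 5.35 to 17.5 CPM in early ones. Of its relatives outside the set, Hmga2 was at 3.52 to 22.2 CPM over the 14 libraries, Hmga1b at 0.00 to 8.71 CPM, and Hmgb4 had counts in late G&N-L replicate 2 alone (24 counts, 0.627 CPM). None of these passed the test in any comparison.

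The genes around this family were read from fixed lists, which were drawn up with earlier results of these data known. Of 18 other HMG-box chromatin genes 16 were tested between the stages with lactate, of which 3 were called higher, and 17 without lactate, of which 1 was called higher. These counts hold the genes called higher alone, and calls in the other direction are not counted. With lactate 11 of the 16 had a higher and 5 a lower fitted level late than early. Ubtfl1, an upstream binding factor relative known from the early embryo, stood at 0.667 and 2.46 CPM in early G&N and 179 and 229 CPM in late G&N (log2 fold change 6.90, SE 0.817, adjusted p = 0.0109 by edgeR). Tox4 rose with lactate (2.83, edgeR adjusted p = 0.0233) and without (3.32, adjusted p = 0.0355), and Hbp1, a transcriptional repressor, rose with lactate (1.26, edgeR adjusted p = 0.0467). On late lactate removal 13 of the 16 tested genes were lower and 3 higher, none by edgeR's adjusted test, with a median log2 fold change of -0.47. Hbp1 was at 70.2 and 83.9 CPM without lactate against 174 and 255 CPM with it. The summed level of the list was 496 and 523 CPM in late G&N-L, 768 and 874 CPM in late G&N and 666 and 827 CPM with Lac-CoA, so the G&N-L pair was the lowest of the late groups.

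Of 23 Sox and Tcf genes 14 were tested between the stages. With lactate 3 were called higher (Sox30, Sox11 and Sox4) and Sox8 was called lower, and without lactate Sox11 was called higher. Their levels were low, with 0.00 CPM of Sox4 in all 4 early libraries and at most 21.3 CPM in a late one. Linker histones compete with HMGN proteins for nucleosomes. H1f8, the linker histone of the oocyte, fell from 1437 and 1416 CPM in early G&N to 221 and 245 CPM in late G&N (log2 fold change -2.69, SE 0.245, edgeR adjusted p = 0.00690) and from 1042 and 1013 CPM to 148 and 263 CPM without lactate (-2.38, SE 0.296, adjusted p = 0.0137). The other 7 of 8 tested linker histone genes were not called in either. Hmgn1 and H1f8 were thus both lower in every late library than in every early one.

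Set, whose protein forms a complex that binds HMGB2, rose in both stage comparisons, from 19.4 and 11.8 CPM to 445 and 567 CPM with lactate (log2 fold change 4.97, edgeR adjusted p = 0.00599) and from 15.2 and 15.2 CPM to 237.7 and 221 CPM without (3.85, adjusted p = 0.00489). It was the 1 of 4 tested genes of the SET complex list to be called. In late embryos it was lower without lactate, with a log2 fold change of -1.09 (SE 0.197, adjusted p = 0.310 by edgeR). Among 6 genes for receptors of extracellular HMGB1, Ager and Tlr4 had no count in any library, Tlr9 was at 0.74 to 9.72 CPM, and none was called in any of the stage or late lactate comparisons.

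The genes whose levels ran most like those of each HMG gene were found by Pearson correlation over the 14 libraries among 25041 genes, as a description over libraries that share stage and depth. For Hmgn5 the nearest were its own copy Gm11914 (r = 0.983) and Lrrc15 (0.975), and for Hmgn2 they were Gm48807 (0.972) and its own copy Hmgn2-ps (0.936). Hmgb2 ran with Rps7 (0.982) and Rps19bp1 (0.981), Hmgb3 with Yme1l1 (0.979) and Pbdc1 (0.975), and Hmgb1 with Iqcg (0.965) and Becn2 (0.956). Hmgn1 ran with 5730480H06Rik (0.956) and D6Wsu163e (0.955), Hmgn3 with Rcbtb2 (0.978) and 4930447C04Rik (0.961), and Hmga1 with Snrpf (0.908) and Sestd1 (0.906). Within the family Hmgb2 and Hmgb3 were the most alike (r = 0.923 over 14 libraries and 0.930 over the 10 late ones), and Hmgn1 and Hmgn5 were the most opposed (-0.858 over 14 libraries and -0.04 over the 10 late ones).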

How the data were processed

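RNA-seq was made from pools of 5 embryos, 2 libraries a group. The authors trimmed reads with Trim Galore after FastQC, aligned them to mm39 with HISAT2 and deposited raw counts per gene from featureCounts, and their own comparisons used DESeq2. Versions, the strand setting and the handling of reads with several matches were not given in the sources used here. The methods speak of 3 replicates, whereas the counts hold 2 a group. The histone mutant columns are named K18A and the sample titles H3K18R, and the titles were followed. Whether the libraries of a group came from separate collections was not stated, so p-values measure the spread between these libraries, which may be technical.

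Each comparison was fitted on its own groups with edgeR 4.0.16 in R 4.3.3 (filterByExpr, TMM, quasi-likelihood test, 2-sided, Benjamini-Hochberg adjustment over all genes tested, threshold 0.05), tested on simulated data first. The SE of a log2 fold change was not given by edgeR. It was derived as the absolute log2 fold change divided by the square root of the F statistic of the quasi-likelihood test. Exact permutation was not used for single genes, since its smallest p with 2 libraries in each group is 0.333. DESeq2 1.42.0, other scalings, filters, a replicate block and fits without each library were alternatives, and adding annotated copies was chosen after seeing the data. Replicate numbers did not pair the libraries (correlation of same-numbered deviations -0.0402 to 0.00709).

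The members and the gene lists were chosen with earlier results of these data known. All 8 members were named in every comparison, from each list at most the 6 genes with the smallest p, and for each member the 2 genes with the highest correlation. The result of 1 listed gene is not reported here. Genes were matched by ID to GENCODE vM39 on GRCm39, the same build as mm39, where 56236 of 56923 IDs were found. Copies were sought with BLAST+ 2.17.0, and promoters and coding sequences were read from that genome with Python 3.11.15 and Biopython 1.88. FPKM used the summed exon length of a gene.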

Additional observations from a re-analysis of the deposited data

Results flagged for a closer look

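For 3 of the HMG genes both G&N-L libraries lay on one side of both G&N libraries early and on the other side late. This was so for 4.98% of all 22287 genes. For Hmgn2 the separation was narrow. Its nearest libraries of G&N-L and G&N stood at 19.0 and 18.6 CPM early and at 26.7 and 28.5 CPM late. The members were chosen with these values known, so nothing is read from the count. The difference between the stages (late effect minus early effect, log2 scale) was 2.4213 for Hmgn3, which was lower without lactate early and higher late. It was -1.1863 for Hmgn5 and -0.9184 for Hmgn2, which were higher without lactate early and lower late. The interaction had edgeR adjusted p-values of 0.619, 0.637 and 0.695, so none passed the test. Adding the annotated copies gave 2.42, -1.22 and -1.10.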

How the results depend on the processing

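By DESeq2 the number of HMG genes called was 1 on late lactate removal, 2 for Lac-CoA against G&N-L, 1 for Lac-CoA against G&N, 6 between the stages with lactate and 5 without. With at least 10 counts in every library it was 1 on late lactate removal, 4 between the stages with lactate and 5 without. With no filter it was 1 on late lactate removal (Hmgb1) and 1 for the interaction (Hmgn3), and with library totals 4 between the stages with lactate. Leaving out 1 library gave 0 to 2 between the stages with lactate and 0 to 2 without, with 0 reached without late G&N replicate 2 and late G&N-L replicate 1, and 0 in each other comparison. With the replicate number as a block the numbers called were 3 with lactate and 2 without, where Hmgn1 was lost, and 0 elsewhere. Of 672 fold changes of the 8 genes under alternatives, 645 differed from the main value by less than the spread between replicates. That spread was the larger standard deviation of log2 CPM within the 2 groups. A change of sign within it is counted among the 645. The 672 include the fits without 1 library. Leaving out 1 of 2 libraries generally moves a group by less than this spread, so the 645 does not measure stability. The other 27 moved by more, and 0 of the called ones reversed. Over all genes late lactate removal gave 0 calls with edgeR, 317 with no filter, 114 with at least 10 counts, 11 with all 14 libraries in 1 fit and 934 by DESeq2. Early lactate removal gave 0 calls, 42 with no filter, 4 with all libraries and 38 by DESeq2. H3K18R gave 1 call, 78 with no filter, 9 with all libraries and 120 by DESeq2. The Lac-CoA comparisons gave 0 calls each, 3 and 22 with no filter, 2 and 20 with at least 10 counts, and 1215 and 476 by DESeq2. The interaction gave 0 calls, 361 with no filter, 1 with all libraries and 246 by DESeq2. The stages with and without lactate gave 2654 and 2203 calls with edgeR, 5937 and 5182 by DESeq2, 5060 and 2975 with no filter, and 1839 and 1391 with the replicate block. The causes were not tested. With 2 libraries a group, differences of the size seen between replicates could not be resolved.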
